A study of Mus musculus with 4 samples.

Results

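The snoRNA host genes examined here are 9 genes of the mouse RefSeq annotation of GRCm38.p6 (mm10), chosen by symbol from its 49997 genes: Snhg17, Snhg15, Snhg9, Rack1, Gas5, Snhg1, Snhg12, Snhg6 and Snhg8. The symbols were listed with the peaks of these libraries already known, so the peak values below describe the members and are not tested. Binding was measured by ChIP-seq with an anti-HA antibody in day 6 embryoid bodies, which are aggregates of differentiating embryonic stem cells. The cells carried the Rx:GFP KI allele and were Wdr5 KO. In both groups the rescue was HA-hWDR5, the HA-tagged human protein made when Dox (doxycycline) is given, and Dox was added at T12h in one group and at T48h in the other. Both groups shared SFEBq culture in GMEM with KSR, Matrigel, and fixation with disuccinimidyl glutarate and paraformaldehyde. Every group consisted of 1 ChIP library with 1 input library, and no value had a replicate check. The event that the hours are counted from, and the number of clones or embryoid bodies pooled, are not stated in the labels, and no sample without HA-hWDR5 is among them. Peak lists hold no RNA levels, so the tissue could not be checked against marker genes.

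Small nucleolar RNAs (snoRNAs) guide chemical modification of ribosomal RNA. Box C/D snoRNAs, named Snord, guide ribose methylation, and H/ACA snoRNAs, named Snora, guide pseudouridylation. In mammals most are cut out of introns of host genes, many of which encode ribosomal proteins or translation factors, while the Snhg genes and Gas5 are hosts whose spliced transcripts are long non-coding RNAs (lncRNAs). Many host transcripts start with a terminal oligopyrimidine (TOP) tract, a C followed by further pyrimidines, as ribosomal protein mRNAs do. WDR5 is a WD-repeat scaffold protein, best known as a core subunit of the MLL and SET1 histone methyltransferase complexes and as a partner of MYC.

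The promoters of the 4 members with a peak are shown first, because every peak of these genes covers the gene's annotated start. The sequences are those of RefSeq on GRCm38.p6, which lists starts for 8 of the 9 members, Snhg6 being the exception. Each runs 5′ to 3′ on the gene's own strand and ends with the 30 bases from the start onward. Those of Snhg17 (chr2:158361493-158361772, minus strand, outer of 2 starts), Snhg15 (chr11:6528731-6529010, minus) and Rack1 (chr11:48800110-48800389, plus) begin 250 bases before it. That of Snhg9 (chr17:24719936-24720062, minus) holds 97 bases before it and stops at the only start the promoter table lists for Rps2, which runs the other way. Capitals mark matches on either strand to the searched motifs that are named after the sequences.
Snhg17: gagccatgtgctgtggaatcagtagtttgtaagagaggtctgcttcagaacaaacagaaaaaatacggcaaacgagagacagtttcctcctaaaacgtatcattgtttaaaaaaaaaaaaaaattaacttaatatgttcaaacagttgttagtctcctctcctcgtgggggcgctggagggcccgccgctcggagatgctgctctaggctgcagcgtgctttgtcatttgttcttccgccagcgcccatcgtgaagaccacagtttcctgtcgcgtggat
Snhg15: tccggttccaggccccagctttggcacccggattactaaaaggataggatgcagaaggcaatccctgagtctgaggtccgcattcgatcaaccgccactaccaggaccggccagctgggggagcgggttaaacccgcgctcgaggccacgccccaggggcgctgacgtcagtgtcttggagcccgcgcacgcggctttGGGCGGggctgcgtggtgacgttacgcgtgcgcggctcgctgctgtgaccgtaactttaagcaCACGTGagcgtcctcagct
Rack1: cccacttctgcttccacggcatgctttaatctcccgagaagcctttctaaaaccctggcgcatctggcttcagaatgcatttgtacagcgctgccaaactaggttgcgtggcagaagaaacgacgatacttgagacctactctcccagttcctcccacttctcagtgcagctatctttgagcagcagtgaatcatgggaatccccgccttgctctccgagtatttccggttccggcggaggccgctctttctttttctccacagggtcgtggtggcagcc
Snhg9: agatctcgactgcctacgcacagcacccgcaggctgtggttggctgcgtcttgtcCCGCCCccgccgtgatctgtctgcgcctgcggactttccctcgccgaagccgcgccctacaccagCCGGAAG

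Both strands were searched, in windows from 250 bases before to 50 bases after each start, for CACGTG (the E-box bound by MYC), GGGCGG (the GC box), CCGGAAG (an ETS site), CCAAT (the CCAAT box), TATAAA (the TATA box), ATGGCGG (part of a YY1 site) and, by name alone, the palindromic consensus sites of NRF1 and of ZBTB33 (the CGCG element). No searched motif overlaps another in the sequences shown. Positions count the start base as 1, are negative before the start with no position 0, and give the first base of the match. Snhg15 held CACGTG at position 12 and GGGCGG at -52. Snhg9 held GGGCGG at -42 on the other strand, CCGGAAG at 24 and, outside the stretch shown, TATAAA at 35 and, inside Rps2, TATAAA at -120 (other strand) and CACGTG at -170. Around the outer Snhg17 start and in Rack1 none of the motifs was found, and the window of the inner Snhg17 start held GGGCGG at 43 on the other strand. CACGTG was present in 7.15% of all 32851 promoter windows, CCGGAAG in 8.86%, GGGCGG in 35.7%, TATAAA in 13.6%, CCAAT in 37.4% and ATGGCGG in 4.05%. Among the members without a peak, GGGCGG was found at Gas5, Snhg1 and Snhg8, TATAAA at Snhg1 (-29, other strand) and Snhg8 (-30), CCAAT at Snhg8, ATGGCGG at the inner Gas5 start (-13, other strand), and none of the motifs at Snhg12. GC content was 47.0% at the outer Snhg17 start, 64.7% at Snhg15, 61.7% at Snhg9 and 54.3% at Rack1. It was 53.0% at Snhg12, 56.7% at Snhg1, 62.0% at Snhg8 and 73.7% and 62.0% at the 2 Gas5 starts, against a median of 52.7% over all windows. The members with and without a peak overlapped in GC content.

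The bases around the starts are shown next because host genes are known for TOP starts. Each line gives the 10 bases before the start and the first 20 bases from it, with the unbroken pyrimidines that begin at the start in capitals. The windows are chr2:158361503-158361532 and chr2:158361490-158361519 for Snhg17, chr11:6528741-6528770 for Snhg15, chr17:24719946-24719975 for Snhg9 and chr3:123508317-123508346 for Snhg8, all on the minus strand. On the plus strand they are chr11:48800350-48800379 for Rack1, chr1:161034591-161034620 and chr1:161035156-161035185 for Gas5, chr19:8723477-8723506 for Snhg1 and chr4:132308668-132308697 for Snhg12.
Snhg17, outer start: agcgcccatcgtgaagaccacagtttcctg
Snhg17, inner start: aagaccacagTTTCCTgtcgcgtggatgtg
Snhg15: ctgtgaccgtaactttaagcacacgtgagc
Snhg9: actttccctcgccgaagccgcgccctacac
Rack1: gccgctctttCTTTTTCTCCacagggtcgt
Gas5, outer start: gcgggcccgcgagctcgacagcccggagcc
Gas5, inner start: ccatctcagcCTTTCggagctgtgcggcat
Snhg1: tcttgtcggcCTCatttttccttgttcggg
Snhg12: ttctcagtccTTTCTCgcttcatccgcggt
Snhg8: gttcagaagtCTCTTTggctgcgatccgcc

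Rack1 began with 10 pyrimidines in a row, the inner Gas5 start with 5 and Snhg8 with 6, each led by a C. A C followed by at least 4 more pyrimidines was found at 2.51% of all annotated starts. Snhg1 began with 3 pyrimidines, and Snhg12 with 6 led by a T. The annotated starts of Snhg15 and Snhg9 and the outer start of Snhg17 were purines, and the inner Snhg17 start opened with 6 pyrimidines led by a T. Of the members with a peak, only Rack1 thus had an annotated start of the TOP kind, while Gas5 and Snhg8 had one and no peak. The Snhg9 peak also covers the listed start of Rps2, whose bases are not shown here. These letters depend on which base the annotation takes as the start.

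Of the 9 members, 4 had a peak summit inside the gene or within 1 kb of either end at T12h, and the same 4 at T48h: Snhg17, Snhg15, Rack1 and Snhg9. Over all annotated genes the share was 2.48% at T12h, 1.03% at T48h and 0.62% at both times. Since the members were listed with these peaks known, nothing is read from that contrast. Gas5, Snhg1, Snhg12, Snhg6 and Snhg8 had no peak at either time. The tag count, score and fold of each peak are the authors': tags are whole ChIP tags in the peak, the score is MACS's p-value as 10 times its negative log10, and the fold is the enrichment over the background MACS estimated around the peak. The T12h library kept 55539917 tags after filtering and gave 1197 peaks, and the T48h library kept 67116740 and gave 660. The intervals on tags are exact Poisson 95% intervals and cover counting error only.

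Snhg17 is a lncRNA gene on chromosome 2 (158353700 to 158361522) with 2 annotated snoRNA genes inside. At T12h its peak (158360790 to 158362113, 1324 bp) held 379 tags (interval 342 to 419), with a score of 2299.75 and a fold of 32.18. At T48h the peak (158360963 to 158361772, 810 bp) held 237 tags (208 to 269), with a score of 1325.4 and a fold of 21.32. This was the highest fold among the members at both times, and the whole T48h interval lay within the T12h one. By score the peak ranked 41 of 1197 at T12h and 23 of 660 at T48h.

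Snhg15, a lncRNA gene on chromosome 11 (6525591 to 6528760), holds 1 annotated snoRNA gene. Its T12h peak (6528019 to 6529040, 1022 bp) held 331 tags (296 to 369), with a score of 2082.34 and a fold of 29.56. Its T48h peak (6528096 to 6529036, 941 bp) held 246 tags (216 to 279), with a score of 889.99 and a fold of 14.28. The rank by score was 52 at T12h and 63 at T48h, so by rank among all peaks it stood lower at T48h than Snhg17.

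Rack1, the protein-coding member, encodes a scaffold protein of the small ribosomal subunit and lies on chromosome 11 (48800360 to 48806241) with 3 snoRNA genes inside, Snord96a and Snord95 among them. The T12h peak (48799920 to 48801130, 1211 bp) held 425 tags (386 to 467), with a score of 2645.81 and a fold of 30.69. The T48h peak (48800041 to 48801127, 1087 bp) held 258 tags (227 to 291), with a score of 978.4 and a fold of 14.22. It had the most tags and the highest score of the members at T12h, where it ranked 18 of all peaks, and at T48h it ranked 55.

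Snhg9 is the shortest member, a lncRNA gene of 435 bp on chromosome 17 (24719531 to 24719965) that holds Snora78. The T12h peak (24719762 to 24720672, 911 bp) held 290 tags (258 to 325), with a score of 1519.31 and a fold of 21.62. The T48h peak (24719462 to 24720905, 1444 bp) held 289 tags (257 to 324), with a score of 763.69 and a fold of 14.03. These were the lowest folds and scores of the 4 members at each time, and the rank by score was 73 at T12h and 67 at T48h. The summits lay outside Snhg9, 303 bp away at T12h and 226 bp away at T48h, and both lay in Rps2, which encodes a small-subunit ribosomal protein. The annotated Rps2 span (24718121 to 24721927, plus strand) holds the whole of Snhg9. Without strand or RNA data the peak cannot be given to one gene of the pair.

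**Figure D1:**
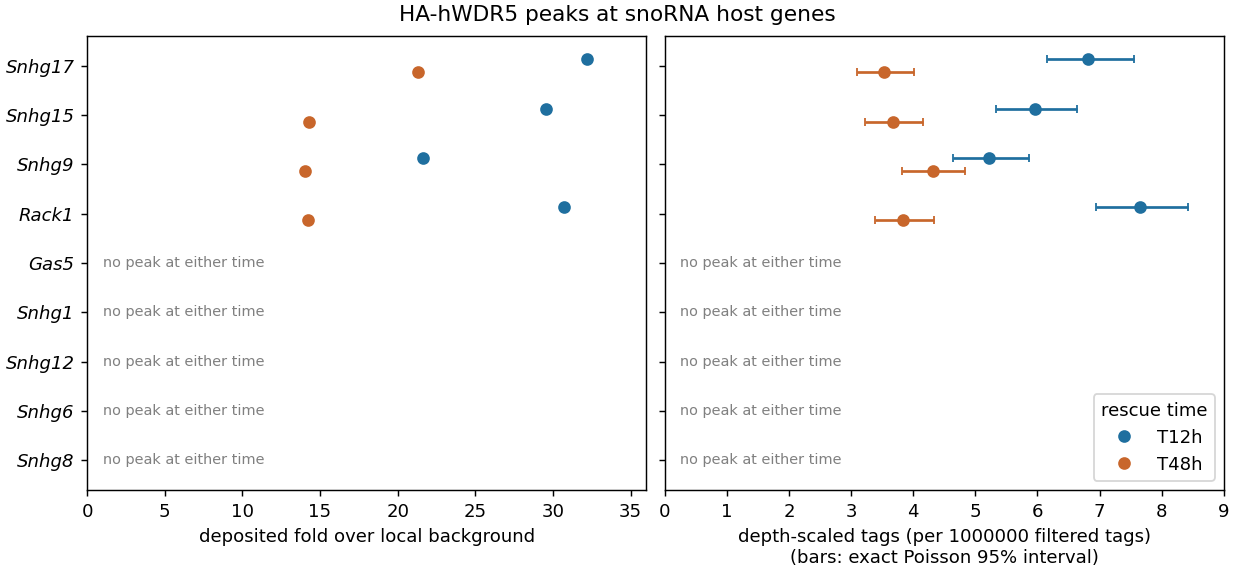
Deposited fold over local background (left) and depth-scaled peak tags (per 1000000 filtered tags) with exact Poisson 95% intervals (right) for the 9 snoRNA host genes, at T12h (blue) and T48h (orange), 1 ChIP library each. All 4 genes with a peak have the higher value at T12h on both scales, with overlapping intervals at Snhg9, and 5 genes have no peak at either time.

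The 4 peaks were far above the middle of their lists. The median peak of all held 36 tags over 359 bp with a fold of 7.31 at T12h, and 32.5 tags over 297 bp with a fold of 7.66 at T48h. At T12h the members' peaks had higher scores than 93.9% to 98.5% of all peaks, and at T48h than 89.8% to 96.5%. The deposited false discovery rate ran from 1.37% (Snhg9) to 5.56% (Rack1) at T12h and from 1.59% (Snhg15) to 4.35% (Snhg17) at T48h. At each time it was highest for the member ranked best by score, Rack1 (rank 18) at T12h and Snhg17 (rank 23) at T48h. The rate therefore does not order these peaks by strength.

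The second question is how the peaks of the same gene compared between the rescue times. The deposited fold was higher at T12h for all 4, by 1.51 times at Snhg17, 2.07 at Snhg15, 1.54 at Snhg9 and 2.16 at Rack1. Over all 228 overlapping pairs of a T12h and a T48h peak the median ratio was 1.47, with quartiles of 1.24 and 1.85. Snhg17 and Snhg9 thus lay near the middle of all pairs (above 51.3% and 54.4% of them), and Snhg15 and Rack1 above the upper quartile (above 82.9% and 87.3%). A higher fold at T12h was therefore the usual state of shared peaks in these 2 libraries. With 1 library per time, a difference between rescue times cannot be told apart from one between libraries.

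Depth-scaled tags, which are tags per 1000000 filtered tags of the library, gave a different order of the members. They were 6.82 and 3.53 at Snhg17, 5.96 and 3.67 at Snhg15, 5.22 and 4.31 at Snhg9, and 7.65 and 3.84 at Rack1, for T12h and T48h. The ratio was 1.93 (exact 95% interval from counts 1.64 to 2.28) at Snhg17, 1.63 (1.37 to 1.93) at Snhg15, 1.21 (1.03 to 1.43) at Snhg9 and 1.99 (1.7 to 2.33) at Rack1. The median over all pairs was 1.61. The interval of Snhg9 lay below that of Rack1 and of Snhg17, but these counts come from intervals of different widths. The Snhg9 peak was 0.631 times as wide at T12h as at T48h, and the Snhg17 peak 1.63 times as wide, against a median of 1.11 over all pairs. Per kb of peak the ratios were 1.18 (1.0 to 1.4) at Snhg17, 1.5 (1.27 to 1.77) at Snhg15, 1.92 (1.63 to 2.27) at Snhg9 and 1.79 (1.53 to 2.09) at Rack1, so Snhg17 then had the lowest and Snhg9 the highest. Over all pairs this ratio had a median of 1.49 and quartiles of 1.25 and 1.66, so Snhg17 lay below the lower quartile and Snhg9 and Rack1 above the upper. The order of the members by their T12h to T48h ratio thus depended on the measure, while each ratio was at or above 1.

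**Figure D2:**
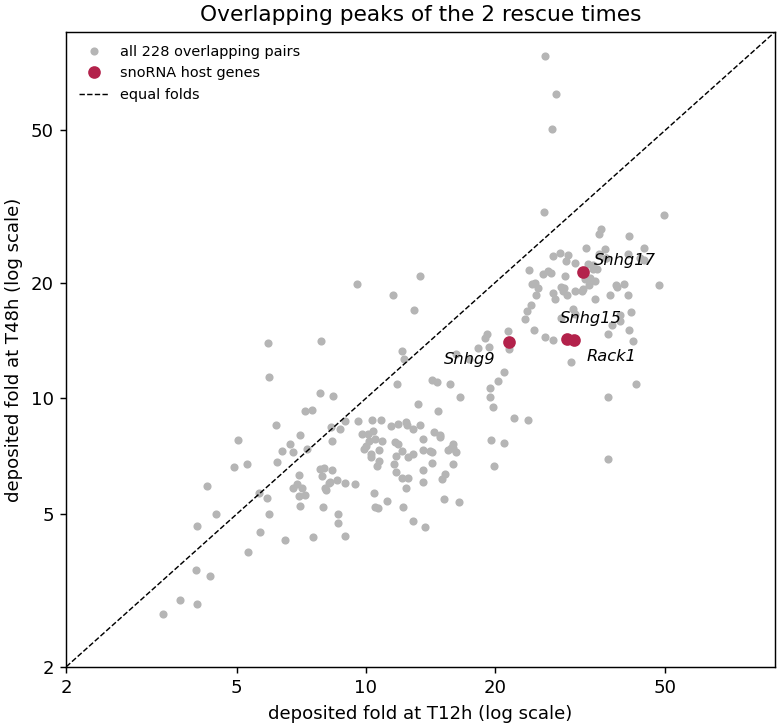
Deposited fold at T48h against T12h (both log scales) for all 228 overlapping peak pairs (grey) and the 4 snoRNA host genes (red), with the line of equal folds. The 4 lie below the line, among other pairs of high fold, and Snhg15 and Rack1 lie farther below it than Snhg17 and Snhg9.

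At 3 of the 4 genes the summit lay downstream of the annotated start, close to the start. Measured from the nearest annotated start, it lay 179 bp (T12h) and 141 bp (T48h) downstream in Snhg17, 175 and 84 bp in Snhg15, and 117 and 212 bp in Rack1. The Snhg9 summits lay upstream of its own start. They lay 205 and 128 bp downstream of the listed Rps2 start at 24720063, which is 98 bp from the Snhg9 start on the opposite strand. The Rps2 span begins further upstream, at 24718121. Read from Rps2, the fourth peak therefore sat at a distance like those of the other members. Of the peaks with an annotated start within 1 kb, the summit was downstream of the nearest one for 352 of 550 T12h peaks (64.0%, median 77.5 bp downstream) and for 126 of 188 T48h peaks (67.0%, 122.5 bp). Of the ribosomal protein genes, 48 had a T12h peak and 47 a T48h peak. Counted per gene, and only where a listed start of the gene lay within 1 kb, 37 of 38 had the summit downstream at T12h. At T48h 37 of 37 did, and the medians were 202.5 and 199 bp. Over all genes counted in this way, the summit was downstream for 360 of 640 at T12h (56.2%, median 48.5 bp). At T48h it was downstream for 130 of 225 (57.8%, median 71 bp).

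Between the times the summits moved by 38 bp at Snhg17, 91 bp at Snhg15, 77 bp at Snhg9 and 95 bp at Rack1, against a median of 58 bp over all pairs. From T12h to T48h the summit moved towards the start in Snhg17 and Snhg15 and away from it in Rack1. At Snhg9 the summit moved towards both its own start and that of Rps2. The 4 shifts thus did not all go the same way. The snoRNA genes lay beside the summits and not under them. The nearest snoRNA gene inside the member was 388 and 293 bp from the summit at Rack1 (T12h and T48h), 420 and 511 bp at Snhg15, 436 and 359 bp at Snhg9 (Snora78), and 1401 and 1439 bp at Snhg17. The Rack1 peaks covered the whole first snoRNA gene at both times, with 68 of its 68 bp, and left out Snord96a and Snord95. In Snhg15 the T12h peak covered all 133 bp of the snoRNA gene and the T48h peak 70 bp. At Snhg9 the T12h peak covered 71 of the 157 bp of Snora78 and the T48h peak all of them. The T48h peak also overlapped Snora64, which lies in Rps2 outside Snhg9. The Snhg17 peaks reached no snoRNA gene. Overlap with a snoRNA gene was therefore no shared feature of the 4 peaks, whereas cover of an annotated start was.

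**Figure D3:**
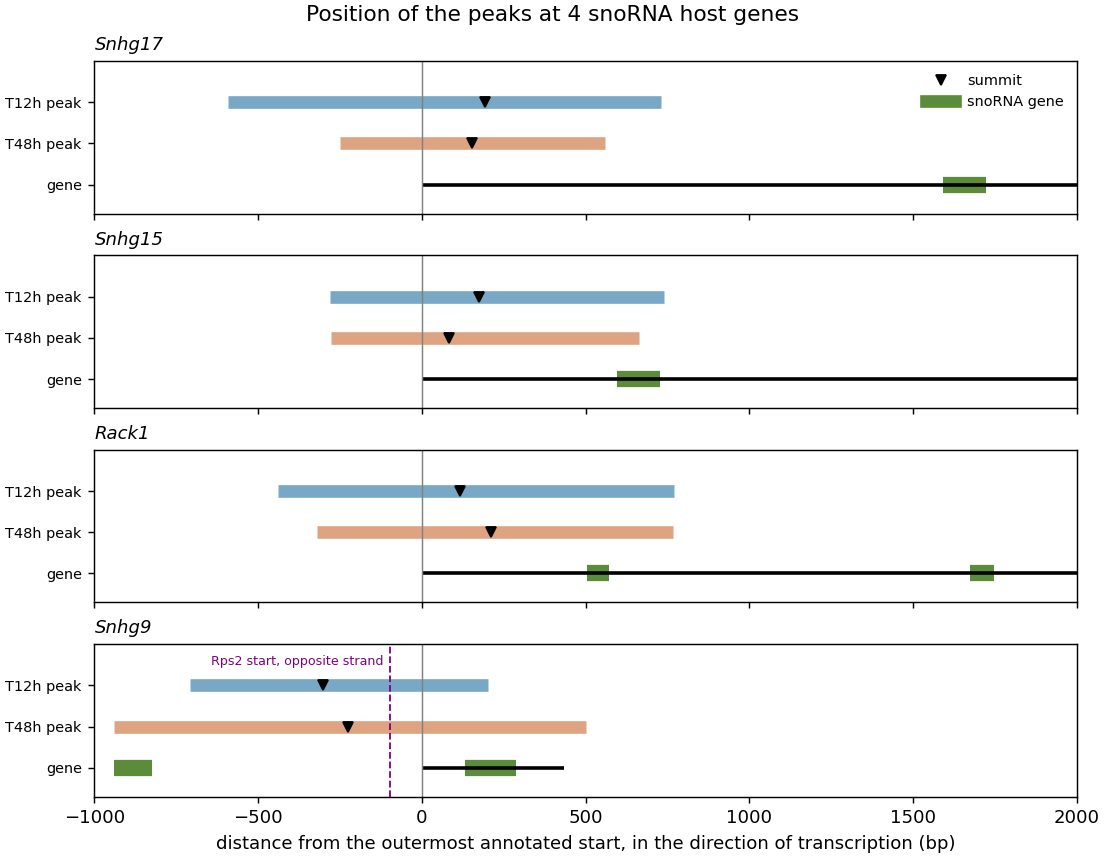
Peak intervals at T12h (blue) and T48h (orange) with their summits (triangles), drawn by distance in bp from the outermost annotated start in the direction of transcription, with the gene (black line, cut at the edge of the plot) and snoRNA genes (green). The summits lie downstream of the start in Snhg17, Snhg15 and Rack1, and for Snhg9 beyond the start of Rps2 (dashed line, the start listed in the promoter table).

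The 5 members without a peak include the hosts with the most snoRNA genes. Gas5, a lncRNA gene named for its rise in growth-arrested cells, holds 8 annotated snoRNA genes, Snhg1 8 and Snhg12 4, while Snhg6 (Snord87) and Snhg8 (Snora24) hold 1 each. The members with a peak hold 1 to 3. The nearest peak to Gas5 lay at 822 kb (T12h) and 3.63 Mb (T48h). For Snhg1 it was 167 kb away at T12h, at Ints5 (fold 8.08), and 241 kb away at T48h, at the elongation factor gene Eef1g (fold 23.64). For Snhg6 it was 1.28 and 6.16 Mb away, for Snhg8 523 kb and 2.40 Mb, and for Snhg12 1.12 Mb at T48h. The member nearest to the 1 kb limit on the inside was Snhg9 at 303 bp, and on the outside Snhg1 at 166922 bp, so no member lay near the limit. The lowest tag count of any listed peak was 12 at T12h and 13 at T48h. The lowest scores, not necessarily of the same peaks, were 50.01 and 50.02. A member without a peak is one with no region past the p-value cutoff of 1e-05 in these lists, and weaker binding cannot be seen in them.

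The peaks at other hosts of lncRNA type had lower folds than those at the members with a peak. Since the members were listed with their peaks known, nothing is read from this contrast. Of 15 further host lncRNA genes, 3 had a peak at T12h (Snhg20, Snhg14 and Epb41l4aos) and 1 at T48h (Snhg20), against 1.44% and 0.621% of all lncRNA genes. The Snhg20 peak lay 223 and 84 bp downstream of the start, with 73 tags and a fold of 10.12 at T12h and 58 tags and a fold of 8.1 at T48h. Snhg14, a very long transcript of the imprinted Prader-Willi region, held 3 T12h peaks of 12 to 18 tags, each far from its annotated starts. The single peak of Epb41l4aos had a fold of 4.78. Snhg3, Snhg4, Snhg5, Snhg7, Snhg10, Snhg11, Snhg16, Snhg18, Dancr, Mir17hg, Meg3 and Rian had none at either time.

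Of 30 protein-coding host genes outside the ribosomal proteins, 8 had a peak at T12h and 4 at T48h, against 4.25% and 1.68% of all protein-coding genes. Those at both times were the translation genes Eif3d (fold 29.26 and 22.88), Eef2 (27.58 and 18.2) and Eif4g1 (21.05 and 11.7) and the splicing gene Sf3b3 (23.54 and 16.11). At T12h alone peaks were listed at Eif4a2, Nap1l4, Taf1d and Prpf39, with folds between 5.46 and 8.24. RefSeq places no snoRNA gene inside Eif3d or Snhg20, so their place in these lists rests on symbols and not on the annotation. Of 22 genes for snoRNP proteins and snoRNA processing, 2 had a peak at T12h, namely the exosome nuclease genes Exosc10 (fold 9.67) and Dis3 (10.71), and Dis3 had one at T48h (6.89). None of the core snoRNP genes Fbl, Nop56, Nop58, Snu13, Dkc1, Nhp2, Nop10 and Gar1 had a peak at either time.

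By position, 489 annotated genes hold a whole snoRNA gene, strand not considered. Of them 53 (10.8%) had a peak at T12h and 36 (7.36%) at T48h, against 2.48% and 1.03% of all annotated genes. The 489 include the 9 members and 30 ribosomal protein genes. Of the other 450, 34 had a T12h peak (7.56%, median fold 7.8) and 17 a T48h peak (3.78%, median fold 8.51). Some of these peaks lay far from the listed start of the gene, and the shares were not adjusted for gene length. The helicase gene Ddx39b (fold 44.64 and 22.94) and Prrc2a (41.21 and 15.04) were among those with peaks as high as the members'. Among ribosomal protein genes, chosen by symbol, 15 of the 30 that hold a snoRNA gene and 33 of the 54 that do not (61.1%) had a T12h peak, and the median fold was 30.7 in the former and 32.9 in the latter. T48h peaks were listed for 15 of the 30 (median fold 19.7) and 32 of the 54 (59.3%, median fold 19.8). Of 100 other lncRNA genes that hold a snoRNA gene, 4 had a peak at T12h and 3 at T48h, against 1.44% and 0.621% of all lncRNA genes. Of these 100 genes, 0 had a peak at both times. The members' folds, 21.6 to 32.2 at T12h and 14.0 to 21.3 at T48h, lay within the range of ribosomal protein genes with a peak (6.34 to 48.5 and 8.74 to 30.6). The lowest of the members' folds at each time is that of the Snhg9 peak. This peak is also the Rps2 peak and so counts in both groups. The groups were not compared by a test, since the members were chosen for these peaks.

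**Figure D4:**
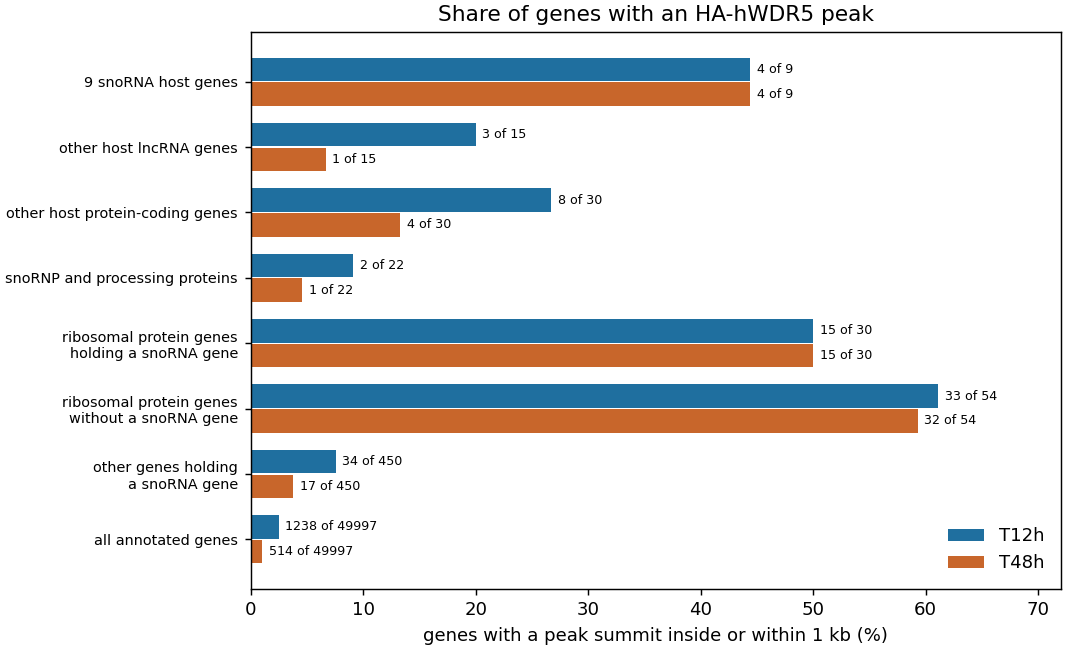
Share of genes (%) with a peak summit inside or within 1 kb at T12h (blue) and T48h (orange), with counts, for the snoRNA host genes, related lists and all annotated genes. Ribosomal protein genes without a snoRNA gene have a T12h peak in 61.1% and those with one in 15 of 30, while other genes that hold one, which include some genes of the host lists above them, have one in 7.56%.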

How the data were processed

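Each of the 2 ChIP libraries came as 1 peak table, which the authors deposited. Per the file headers, MACS 1.4.2 compared that library with 1 control library. The headers give a p-value cutoff of 1e-05 and 1 tag kept per position. The submitters' processing notes list Bowtie2, SAMtools 1.5 and mm10. Per the file headers, the authors deposited for each peak a whole tag count, a score (10 times the negative log10 of the p-value), a fold (a ratio to the local background) and a false discovery rate in percent. None was recomputed. The T12h library held 90473125 ChIP tags, 55539917 after filtering, and the T48h library 124280184 and 67116740. Read-level data were not analysed here.

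Summits (start plus offset minus 1) were assigned to every RefSeq gene (GRCm38.p6) within 1 kb of its span, with Python 3.11.15, pandas 2.3.3, numpy 2.4.6, scipy 1.17.1 and matplotlib 3.10.9. Assignment was checked on simulated peaks. Peaks were paired between times when they overlapped by at least 1 bp. Strand and starts came from the RefSeq promoter table. Intervals on tags are exact Poisson, and those on ratios exact conditional binomial intervals at 95%. They cover counting error only, since each time had 1 ChIP library and no replicate. The members and gene lists were chosen with earlier results of these data known. Some results that the naming rule covers are not reported here. The text names all 9 members, their nearest peaks, and up to 6 genes with a peak in each other list, ranked by T12h score. Nap1l4, Taf1d, Ddx39b and Prrc2a fall outside this rule and were named after their values were seen, and so were the genes listed without a peak. Alternatives changed the window, the peak position, the score limit, the genes counted per peak, the overlap and the measure of the ratio.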

Additional observations from a re-analysis of the deposited data

How the results depend on the processing

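The 4 members kept a peak at both times with a window of 500 bp or 5 kb, with the peak interval in place of the summit and with a score of at least 100, and their peaks overlapped by 50% of both. Counting the nearest gene alone left 3 members at each time, because the Snhg9 summits lie inside Rps2. A score of at least 100 lowered the share of all genes with a peak to 1.09% at T12h and 0.396% at T48h, the other host lncRNA genes to 1 and the host protein-coding genes to 5 at T12h, the genes holding a snoRNA gene to 32 at T12h, and the snoRNP protein genes to 0 at T48h, since fewer peaks remained. The nearest gene alone also gave 0 snoRNP protein genes at T48h. With depth-scaled tags in place of the fold the T12h to T48h ratio moved to 1.93 at Snhg17, 1.63 at Snhg15 and 1.21 at Snhg9, and per kb of peak to 1.18 at Snhg17, 1.5 at Snhg15, 1.92 at Snhg9 and 1.79 at Rack1; the cause was not tested. Of 74 values recomputed, 60 stayed within their tolerance and 14 moved beyond it. A reversal in direction could be recorded only for the T12h to T48h ratios, and there were 0. The tolerance was 1.5 times for counts and shares, and for ratios the 95% counting interval of the alternative. No paired analysis was possible because each time had 1 ChIP library and no result comes from a test. With 1 library per time, no difference between T12h and T48h can be told apart from a difference between libraries.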
